A study of Mus musculus with 22 samples.

Results

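Decorin (Dcn) and its relatives biglycan (Bgn), lumican (Lum), fibromodulin (Fmod), osteoglycin (Ogn), asporin (Aspn), Prelp and osteomodulin (Omd) were followed in FE1 cells exposed to carbon nanotubes. These 8 small leucine-rich proteoglycans were taken by symbol, as the probes whose accession matched one of those names. Of the 20018 genes that could be named on the array, 7 were members, each with 1 probe. No probe was matched to Prelp. Of the 7, Dcn, Bgn, Fmod, Ogn and Omd were detected in at least 4 arrays of every group, while Lum and Aspn were not detected in 4 arrays of any group.

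Small leucine-rich proteoglycans are secreted matrix proteins built from leucine-rich repeats, most of which carry glycosaminoglycan chains. They coat collagen fibrils and regulate fibril assembly and spacing, and several also bind growth factors, among them TGF-beta, so they are much studied in fibrosis. Decorin and biglycan carry chondroitin or dermatan sulfate chains, whereas fibromodulin, lumican and osteomodulin are keratan sulfate proteoglycans. In lung they are produced mainly by fibroblasts and other mesenchymal cells.

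FE1 cells are a lung epithelial line derived from the transgenic MutaMouse and were kept in medium with 2% serum and epidermal growth factor. The cells were incubated for 24 h with Mitsui7, a multi-walled carbon nanotube, at 0 µg/ml (Control, n = 5 arrays), 12.5 µg/ml (D1, n = 6), 25 µg/ml (D2, n = 5) or 100 µg/ml (D3, n = 6). Every array carried RNA of 1 sample in Cy5 and a pooled mouse reference RNA from 11 cell lines in Cy3, so a level below is a log2 ratio of sample to reference, and a change is the difference of such ratios between groups. The 22 arrays lay on 5 slides, and slide was a term of each model. The methods of the study state fewer separate exposure experiments than there are arrays in a group, but not which array belongs to which. Some arrays of a group thus share an experiment, n counts arrays, and p-values measure the spread between these samples.

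Between 24185 and 38531 probes per array exceeded the negative control level in Cy5. The label of the line was checked against markers. Of 8 epithelial markers, Krt7, Krt8, Krt18, Krt19 and Cldn7 were detected in at least 4 control arrays, but E-cadherin (Cdh1) was at the negative control level on every array, and Epcam and Ocln were detected on 2 control arrays each. All 10 mesenchymal markers were detected in the 5 control arrays. The median Cy5 signal in controls was 913 for Krt18 and 181.5 to 233.5 for Krt7, Krt8, Krt19 and Cldn7. That of the mesenchymal markers ran from 371 (Pdgfrb) to 237629 (Col1a2), with 62640 for Vim. Mean control log2 ratios ran from -5.62 (Krt18) to -0.31 (Krt7) for these 5 epithelial markers and from -2.76 (Thy1) to 1.77 (Col1a1) for the mesenchymal ones. Some markers of other lists were also brighter in Cy5 than these epithelial ones. The alveolar marker Pdpn read 6007 and the leukocyte markers Itgam and Cd14 read 12482 and 1847. Ptprc and Adgre1 read 114 each, and the remaining alveolar and club markers at most 112. Signals of different probes thus do not rank cell types. In RNA of whole cultures, fewer cells of a type and less RNA per cell cannot be told apart.

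Since Ogn, Omd and Fmod all fell after exposure and Bgn was less clearly lower, the 250 bases upstream of their RefSeq start sites (build GRCm38.p6) are shown for comparison. Each is written from 5′ to 3′ on the plus strand, which is the gene's strand. Capitals mark matches on either strand to any of 4 motifs. They were TATAAA for the common promoter box of that name, CCAAT for the box bound by NF-Y, TGANTCA for sites of the factor AP-1 and GCGTG for the core of aryl hydrocarbon receptor sites. Ogn lies at chr13:49607765-49608014, Omd at chr13:49582212-49582461, Fmod at chr1:134037004-134037253 and Bgn at chrX:73483351-73483600.
Ogn: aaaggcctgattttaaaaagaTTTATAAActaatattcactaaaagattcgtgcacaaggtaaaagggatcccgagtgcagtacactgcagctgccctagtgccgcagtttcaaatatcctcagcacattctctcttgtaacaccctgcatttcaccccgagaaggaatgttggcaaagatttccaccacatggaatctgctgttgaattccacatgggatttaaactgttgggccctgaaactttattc
Omd: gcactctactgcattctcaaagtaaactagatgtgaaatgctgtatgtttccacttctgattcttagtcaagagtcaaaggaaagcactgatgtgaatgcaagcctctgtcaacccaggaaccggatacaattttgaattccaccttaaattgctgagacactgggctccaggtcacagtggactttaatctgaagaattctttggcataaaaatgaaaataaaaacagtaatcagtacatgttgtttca
Fmod: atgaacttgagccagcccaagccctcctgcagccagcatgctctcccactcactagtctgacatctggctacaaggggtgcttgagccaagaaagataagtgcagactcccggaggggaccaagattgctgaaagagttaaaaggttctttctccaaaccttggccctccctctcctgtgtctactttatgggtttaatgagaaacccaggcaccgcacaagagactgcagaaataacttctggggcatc
Bgn: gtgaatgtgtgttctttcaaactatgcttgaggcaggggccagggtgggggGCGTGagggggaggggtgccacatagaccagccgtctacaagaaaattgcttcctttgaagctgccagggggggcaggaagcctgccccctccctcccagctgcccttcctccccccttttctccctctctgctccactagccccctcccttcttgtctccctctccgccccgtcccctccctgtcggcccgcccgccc

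Ogn held TATAAA on both strands in overlapping positions, starting 229 and 227 bases before the start site. Bgn held GCGTG 199 bases before it. The Omd and Fmod windows held none of the 4 motifs. Over all 32851 windows of this length in the table, 12.4% held TATAAA, 33.8% CCAAT, 6.75% TGANTCA and 28.2% GCGTG. The share of G and C was 42% for Ogn, 38.4% for Omd, 51.2% for Fmod and 64.4% for Bgn, beside a median of 52.4% over all windows. Omd and Ogn are neighbours on chromosome 13, next to Aspn, Fmod lies beside Prelp on chromosome 1, and Dcn lies beside Lum on chromosome 10.

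Exposure to Mitsui7 was accompanied by lower levels of 4 of the 5 detected members, 3 of them called at all 3 doses. Bgn was not called at any dose, and no detected member was called higher. Against Control, Dcn, Fmod and Ogn were lower at D1, and Dcn, Fmod, Ogn and Omd were lower at D2 and at D3. By limma with Benjamini-Hochberg adjustment over all 55681 probes, where a call meant an adjusted p not above 0.05, a fold of 1.5 or more and a signal above the negative controls on 4 or more arrays of 1 of the groups, 3 of the 5 detected members were called lower at D1, 4 at D2 and 4 at D3. The background was low: 3.02% of the 13649 detected genes were called lower at D1, 4.62% of 13482 at D2 and 6.38% of 14018 at D3. The median log2 change of the 5 detected members was -1.15 at D1, -1.35 at D2 and -1.36 at D3, whereas over all detected genes it was 1.16e-05, 0.000537 and 0.00857. The 5 members passed the detection limit in each of the 4 groups, so none entered through its high group alone.

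**Figure D1:**
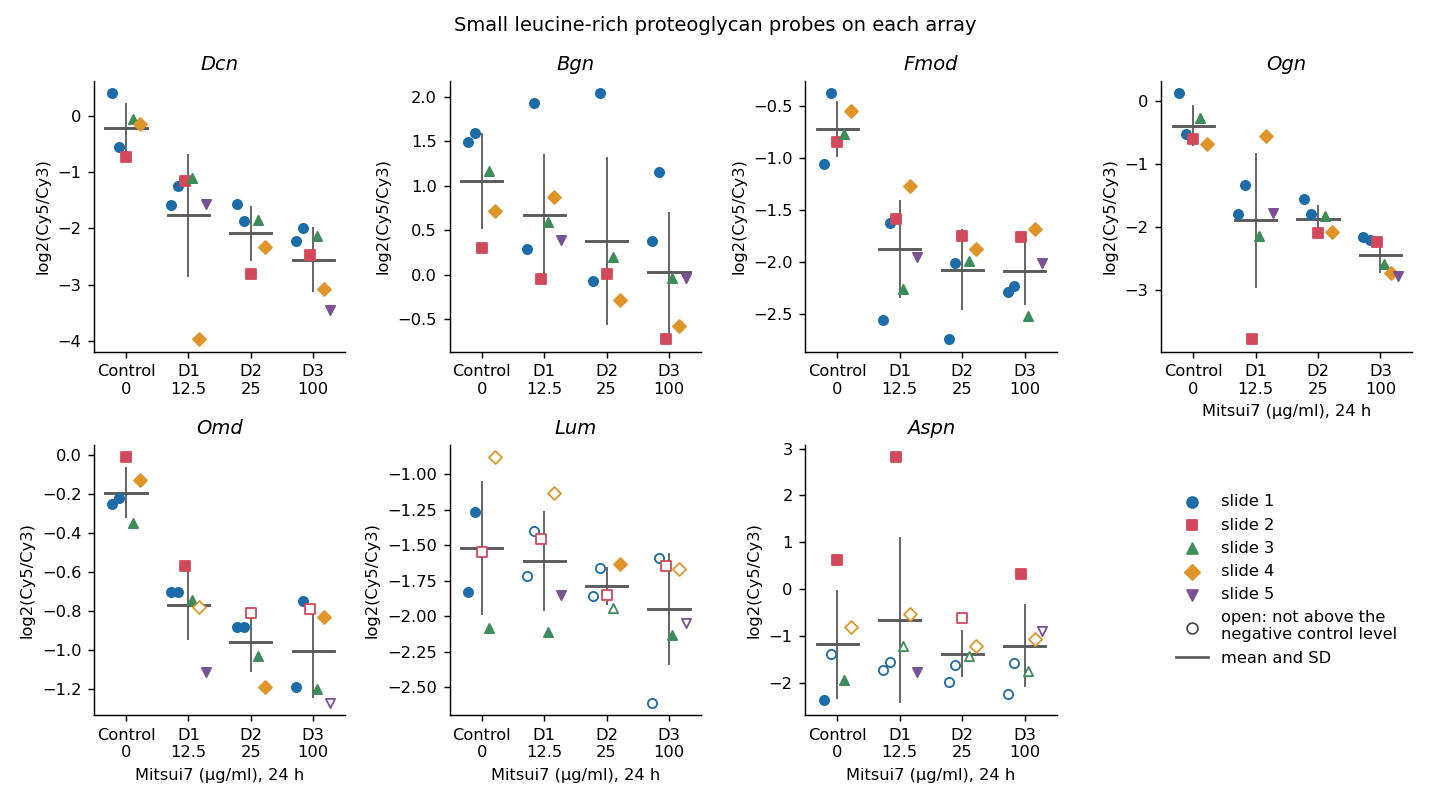
Log2 ratio of Cy5 to Cy3 of each of the 7 members with a probe (vertical axis, own scale per panel) on the 22 arrays by Mitsui7 dose in µg/ml; colour and shape give the slide, open points did not exceed the negative control level, and the bars are group means with SD. Every exposed array lies below every control array for Dcn, Fmod and Omd, while Bgn, Lum and Aspn overlap between groups.

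Decorin binds type I collagen fibrils and TGF-beta. By loess ratios in the model with group and slide, it had the largest estimated decrease among the members at each dose. At D1 that of Ogn was nearly equal. The order depended on the setting. By the scanner software's own log ratio Dcn changed by -1.265, -1.745 and -2.057 at D1, D2 and D3. Fmod and Omd, as given below, then fell further at each dose. Without D1 replicate 6 the D1 change was -1.04 for Dcn, -1.84 for Ogn and -1.23 for Fmod. On the 5 control arrays the log2 ratio of Dcn was 0.40, -0.55, -0.05, -0.73 and -0.15, a mean of -0.22 ± 0.44 (SD, n = 5). At D1 it ranged from -3.97 over a median of -1.40 to -1.10, at a mean of -1.77 ± 1.10 (SD, n = 6). Every D1 array was thus below the lowest control array, and replicate 6 was far below the other 5. On the D2 arrays the log2 ratio of Dcn was -1.57, -1.86, -1.85, -2.81 and -2.33 (mean -2.08 ± 0.49, SD, n = 5). At D3 the lowest value was -3.45, the median -2.35 and the highest -1.99 (mean -2.55 ± 0.58, SD, n = 6). The D2 and D3 arrays were likewise all below the controls, and the exposed groups overlapped one another.

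The log2 change of Dcn against Control was -1.49 ± 0.336 (SE) at D1, or 2.8-fold lower, with an adjusted p of 0.014. It was -1.87 ± 0.344 (SE) at D2, or 3.64-fold lower, with an adjusted p of 0.00175. At D3 it reached -2.27 ± 0.336 (SE), or 4.82-fold lower, with an adjusted p of 1.17e-04. The signal of the reference on this probe stayed between 7128.5 and 22494 Cy3 units on the 22 arrays. The Cy5 signal fell from a median of 12164 in controls to 3538.25 at D1, 2999 at D2 and 1546.5 at D3. On D1 replicate 6 the Cy5 signal was 267.5. Without this array the D1 change was -1.04 (adjusted p = 0.0112), and without Control replicate 5 it was -1.21 with an adjusted p of 0.0513, which is no longer a call.

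Osteoglycin, also called mimecan and first isolated from bone, fell at all 3 doses. Its control values were 0.12, -0.52, -0.27, -0.60 and -0.68 (mean -0.39 ± 0.32, SD, n = 5). At D1 the log2 ratio ran from -3.78 over a median of -1.78 to -0.55 (mean -1.89 ± 1.08, SD, n = 6). The extremes were D1 replicate 4 and D1 replicate 6, and the latter lay within the control range. The D2 arrays gave -1.56, -1.79, -1.82, -2.09 and -2.08 (mean -1.87 ± 0.23, SD, n = 5), and the D3 arrays lay between -2.77 and -2.16 with a median of -2.41 (mean -2.45 ± 0.28, SD, n = 6). All D2 and D3 arrays were below all controls, and each D3 array was also below each D2 array. The log2 change against Control was -1.48 ± 0.322 (SE) at D1 with an adjusted p of 0.0103, -1.48 ± 0.329 at D2 with an adjusted p of 0.00837 and -2.04 ± 0.322 at D3 with an adjusted p of 2.32e-04, equal to 2.79-fold, 2.79-fold and 4.1-fold lower. Leaving out D1 replicate 4 gave -1.07 at D1 (adjusted p = 0.0114) and leaving out D1 replicate 6 gave -1.84 (adjusted p = 3.8e-04). With both D1 replicates 4 and 6 left out, a setting chosen after seeing the data, the D1 change was -1.18 for Dcn (adjusted p = 0.00762) and -1.41 for Ogn (adjusted p = 4.78e-05).

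The D1 and D2 calls of Dcn and Ogn did not hold under every setting. At D1 both were lost with an ordinary linear model (adjusted p = 0.0646 for Dcn and 0.0518 for Ogn), with only the groups compared (0.101 and 0.0841), without slide 1 (0.171 and 0.173) and without slide 3 (0.0646 and 0.0985). That of Dcn was also lost with median centring in place of loess (adjusted p = 0.107), and that of Ogn with the scanner's own log ratio (-1.30, adjusted p = 0.0757). At D2 both were lost with median centring (adjusted p = 0.0613 for Dcn and 0.0583 for Ogn) and without slide 1 (0.0671 and 0.194), and Ogn also without slide 3 (0.0633). The D3 calls of Dcn, Ogn and Fmod held in all 43 settings that gave a test.

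**Figure D2:**
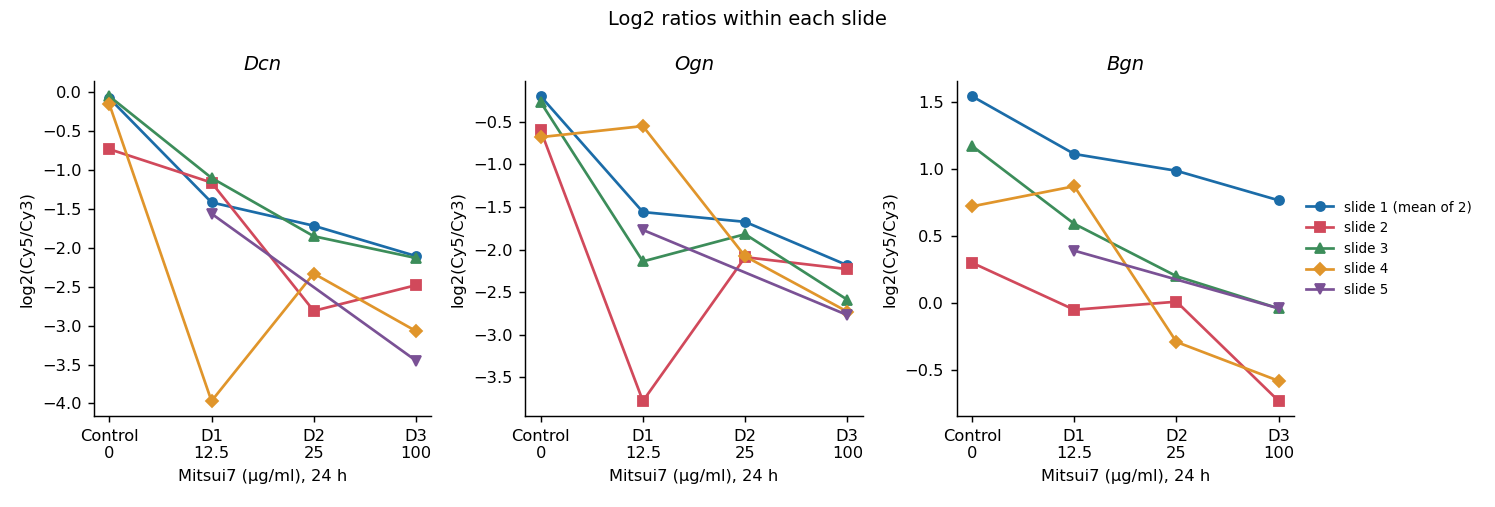
Log2 ratio of Cy5 to Cy3 (vertical axis) of Dcn, Ogn and Bgn against Mitsui7 dose in µg/ml, with a line for each of the 5 slides; slide 1 is drawn as the mean of its 2 arrays per group and the other points are single arrays. D2 and D3 lie below Control on each slide that holds a control for all 3 genes, while at D1 the slide 4 array of Dcn (-3.97) and the slide 2 array of Ogn (-3.78) stand far below the others.

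Slides 1 to 4 held arrays of all 4 groups, so the change could also be read within a slide. For Dcn the difference at D1 was -1.34 on slide 1, -0.43 on slide 2, -1.05 on slide 3 and -3.82 on slide 4. At D3 it was -2.03, -1.75, -2.07 and -2.91 on these slides. For Ogn the D1 difference was -1.35, -3.18, -1.87 and 0.13, so that on slide 4 no decrease was seen at D1. At D2 the 4 slides gave Ogn differences between -1.56 and -1.41, and at D3 between -2.32 and -1.63. The D2 and D3 differences of the 5 detected members were below 0 on all 4 slides.

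Fibromodulin, a keratan sulfate proteoglycan that shares a binding site on collagen with lumican, also fell at all 3 doses. Its control arrays read -1.06, -0.38, -0.77, -0.85 and -0.55 (mean -0.72 ± 0.26, SD, n = 5). At D1 it lay between -2.55 and -1.27 with a median of -1.79 (mean -1.87 ± 0.47, SD, n = 6), so no D1 array reached the lowest control. The D2 arrays read -2.74, -2.01, -1.99, -1.75 and -1.87 (mean -2.07 ± 0.39, SD, n = 5) and the D3 arrays lay between -2.52 and -1.68 with a median of -2.12 (mean -2.08 ± 0.32, SD, n = 6). Both groups were again wholly below the controls, and the 3 exposed groups overlapped. The log2 change was -1.15 ± 0.181 (SE) at D1, -1.35 ± 0.185 at D2 and -1.36 ± 0.181 at D3, with adjusted p-values of 6.51e-04, 9.14e-05 and 3.54e-05, or 2.22-fold, 2.55-fold and 2.57-fold lower.

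Osteomodulin, also a keratan sulfate proteoglycan, had a smaller decrease on a probe near background, with the smallest standard errors of the 5 detected members. The log2 ratio was -0.25, -0.22, -0.35, -0.01 and -0.13 on the control arrays (mean -0.19 ± 0.13, SD, n = 5). It lay between -1.11 and -0.57 at D1 with a median of -0.72 (mean -0.77 ± 0.18, SD, n = 6). At D2 it was -0.88, -0.88, -1.03, -0.81 and -1.19 (mean -0.96 ± 0.15, SD, n = 5). No exposed array overlapped the controls, and at D3 the values lay between -1.27 and -0.75 with a median of -1.01 (mean -1.003 ± 0.24, SD, n = 6). The change at D1 was -0.51 ± 0.088 (SE), or 1.43-fold lower, with an adjusted p of 0.00149, which missed the 1.5-fold limit. At D2 it was -0.77 ± 0.0899 (SE), or 1.7-fold lower (adjusted p = 1.6e-05), and at D3 -0.75 ± 0.088, or 1.68-fold lower (adjusted p = 8.04e-06). When sample number was the block instead of slide, the D1 change of Omd was -0.59 (adjusted p = 3.51e-04), which is past the limit.

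Fmod and Omd were dim. The median Cy5 signal of Fmod was 233 in controls and 112, 115 and 102.75 at D1, D2 and D3, and that of Omd was 158.5 in controls and 89.5, 93 and 86.25, without background subtraction. By the scanner's mark, Fmod was well above background on 4 control, 4 D1, 2 D2 and 5 D3 arrays. Omd was so on 4 control, 1 D1, 2 D2 and 1 D3 arrays. The scanner software's own log ratio, which differs in background subtraction and in dye normalization, gave log2 changes of -1.79, -2.23 and -2.18 for Fmod at D1, D2 and D3, and of -1.45, -1.76 and -2.20 for Omd, so that Omd was called at D1 as well (adjusted p = 0.0419), whereas Ogn was not. By the scanner's ratio the adjusted p of Omd was 0.0107 at D2 and 0.00115 at D3, larger than by loess ratios. Median centring gave 0.0123 and 0.00876. With normexp background correction before loess the changes were -1.13, -1.37 and -1.33 for Fmod and -0.52, -0.74 and -0.69 for Omd. Their size thus differed between settings, and their direction did not.

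Biglycan, the closest relative of decorin and in soluble form a ligand of Toll-like receptors, was lower on average without passing the test. Control arrays read 1.49, 1.59, 1.17, 0.30 and 0.72 (mean 1.05 ± 0.54, SD, n = 5). At D1 it lay between -0.05 and 1.93 with a median of 0.49 (mean 0.67 ± 0.69, SD, n = 6). The D2 values were -0.07, 2.04, 0.20, 0.01 and -0.29 (mean 0.38 ± 0.94, SD, n = 5). All groups overlapped in these ratios, which still hold the slide effects, and replicate 2 was the highest array of each of the 4 groups. At D3 the values lay between -0.73 and 1.15 with a median of -0.04 (mean 0.02 ± 0.68, SD, n = 6). Of the 6 D3 arrays 4 lay below every control array, and with slide effects removed all 6 did. The log2 change was -0.35 ± 0.306 (SE, adjusted p = 0.702) at D1, -0.68 ± 0.313 (adjusted p = 0.304) at D2 and -0.996 ± 0.306 (adjusted p = 0.0501) at D3, just above the threshold. With the sample number as a block the D3 change was -0.99 (adjusted p = 0.00223), which passes. Leaving out D2 replicate 2 gave -0.98 at D2 (adjusted p = 0.0392), a call. In all, 13 of 43 alternative settings called Bgn lower at D3, 6 of them by leaving out a single array.

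**Figure D3:**
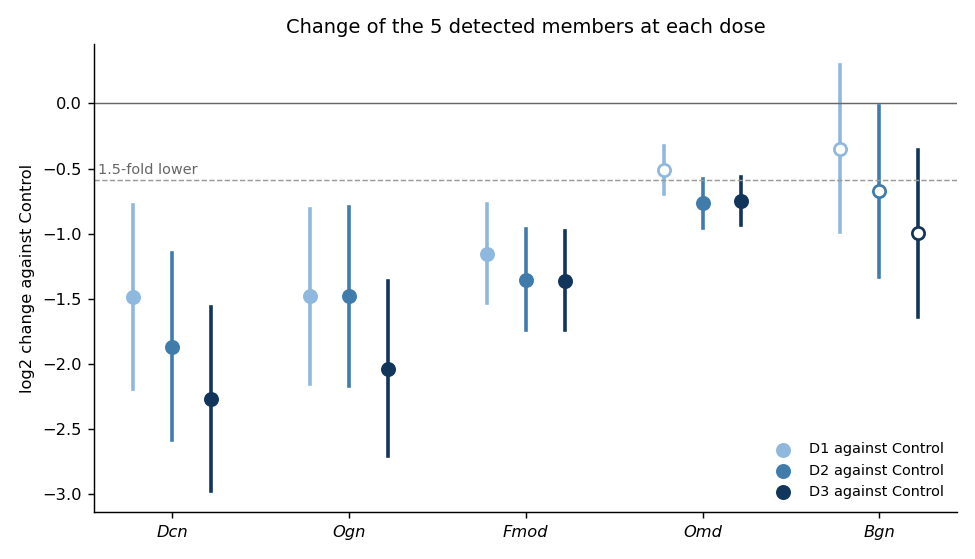
Log2 change against Control (vertical axis) of the 5 detected members at D1, D2 and D3, from the model with group and slide over 22 arrays; points are estimates, bars are 95% confidence intervals, filled points were called and the dashed line marks 1.5-fold lower. Dcn ranges from -1.49 to -2.27, Omd from -0.51 to -0.77, and the D1 interval of Bgn spans 0.

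Lumican and asporin gave no measurable level in most arrays. Lum, a keratan sulfate proteoglycan known for corneal transparency, exceeded the negative control level on 3 control, 2 D1, 1 D2 and 1 D3 arrays, with Cy5 signals of 68 to 113. By the scanner's mark it was well above background on 2 control arrays and on none of the exposed arrays. Aspn, a relative of decorin with an aspartate stretch, was detected on 3 control, 2 D1, 0 D2 and 1 D3 arrays. Its 4 arrays on slide 2 read 0.62 in Control, 2.82 at D1, -0.62 at D2 and 0.33 at D3, whereas the other 18 arrays lay between -2.35 and -0.53. No change is given for either gene as a result.

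The doses were next compared with each other, to ask whether the decrease deepened from 12.5 to 100 µg/ml. No member was called between any pair of doses or in the trend over log2 dose. By limma, 0 of the members passed in D2 against D1, D3 against D2, D3 against D1 and the trend, where 0%, 0%, 0.421% and 0.698% of the detected genes were called in either direction. At an unadjusted p under 0.05 the numbers among the 5 detected members were 1, 0, 3 and 3, beside 8.5%, 5.41%, 14.7% and 13.3% of the detected genes, and an ordinary linear model called 0 in each of the 4 comparisons.

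For Dcn the mean fell in the order Control, D1, D2, D3. Its log2 change from D1 to D2 was -0.38, with a 95% confidence interval from -1.08 to 0.32, and from D2 to D3 it was -0.40, with an interval from -1.11 to 0.30. Both intervals span 0 and are wide, so these arrays do not settle whether neighbouring doses differ. D3 against D1 gave -0.78 ± 0.314 (SE, adjusted p = 0.474), and the trend was -0.25 ± 0.103 (SE) per doubling of dose (adjusted p = 0.536). Without D1 replicate 6 the difference between D3 and D1 was -1.19 (adjusted p = 0.0233) and the trend -0.37 per doubling (adjusted p = 0.0305), so both were calls. Without slide 4, which holds that array, D3 against D1 was -1.12 (adjusted p = 0.0411).

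Among the other members, D3 against D1 was -0.56 for Ogn, with a 95% interval from -1.18 to 0.07, and -0.21 for Fmod, with an interval from -0.56 to 0.14. It was -0.24 for Omd (interval -0.41 to -0.06, adjusted p = 0.358) and -0.65 for Bgn (interval -1.25 to -0.05, adjusted p = 0.55). The intervals of Omd and Bgn exclude 0 before adjustment only. All 5 estimates were below 0.

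The genes that surround these proteoglycans were then described from fixed lists, at D3 against Control, where 6.38% of all detected genes were called lower and 5.38% higher. None of the 6 detected genes of the wider family (Podn, Chadl, Podnl1, Chad, Tsku and Ecm2) was called at D1 or D3, and the median log2 change was 0.17 at D3. Podocan (Podn) was called lower at D2 (-0.59 ± 0.116, SE, adjusted p = 0.00301) and read -0.48 at D3 (adjusted p = 0.00894), under the fold limit. The brightest Chadl probe read 0.51 at D3 (adjusted p = 0.138), Podnl1 0.29 (adjusted p = 0.178) and Chad, chondroadherin, 0.19 (adjusted p = 0.287).

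Of 20 detected genes that build chondroitin and dermatan sulfate, the chains of decorin and biglycan, 1 rose and 2 fell at D3, with a median log2 change of -0.08. The sulfotransferase gene Chst7 rose by 1.40 ± 0.198 (SE, adjusted p = 7.11e-05). The sulfotransferase gene Chst12 changed by -0.85 (adjusted p = 7.07e-04) and the chain-polymerizing Chpf2 by -0.80 (adjusted p = 3.55e-06). Csgalnact1, which starts the chain, read -0.55 (adjusted p = 0.0212), under the fold limit. Of 8 detected genes of keratan sulfate synthesis, 1 rose and 3 fell, with a median of -0.37. Chst2, a sulfotransferase acting on N-acetylglucosamine, changed by -1.13 (adjusted p = 4.44e-04), and the sialyltransferases St3gal3 and St3gal1 by -0.68 and -0.61. B3gnt2, which extends the chain, rose by 0.64 (adjusted p = 0.00181).

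Several collagens of the fibrils that the members coat also fell. Of 7 detected fibrillar and fibril-associated collagens, 4 fell at D3 and none rose, and the median log2 change was -0.67; 3 fell at D1 and 3 at D2. Col3a1 changed by -0.83, -1.35 and -1.70 at D1, D2 and D3, Col1a2 by -0.77, -1.24 and -1.52, and Col1a1 by -0.88, -1.08 and -1.34. Col5a3 changed by -0.67 at D3 (adjusted p = 0.00107). Between D3 and D1, 2 of the 7 collagens were called lower, beside 0 of the 5 detected members, and the difference between these counts was not tested.

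Of 18 detected growth factors and receptors linked to decorin or biglycan, 3 fell and 2 rose at D3. Tgfb2 changed by -1.84 ± 0.109 (SE, adjusted p = 1.45e-09) and Tgfb3 by -1.54 ± 0.0883 (adjusted p = 9.73e-10). Against this direction, Ccn2, the connective tissue growth factor, rose by 2.10 ± 0.157 (SE, adjusted p = 3.31e-08) and Vegfa by 0.65 (adjusted p = 1.35e-04). Of 9 detected proteases reported to cut small leucine-rich proteoglycans, 2 rose and 1 fell. The collagenase gene Mmp13 rose by 3.23, 3.63 and 3.52 at D1, D2 and D3, and stromelysin Mmp3 by 1.93, 2.07 and 1.77. The gelatinase gene Mmp2 changed by -0.83 at D3 (adjusted p = 0.0462), with values on 4 control and 5 D3 arrays, 4 of the 22 arrays missing, and was called in 19 of 43 settings. Adamts4, an aggrecanase, read 0.41 (adjusted p = 0.065).

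Of 19 detected proteoglycans outside the family, 6 fell and 1 rose at D3, with a median of -0.20. Tgfbr3, the betaglycan that presents TGF-beta, changed by -1.62 ± 0.147 (SE, adjusted p = 5.15e-07), with 1 array of D2 missing its value. The basement membrane proteoglycans Hspg2 (perlecan) and Col18a1 changed by -0.90 and -0.76, although the other detected probe of Hspg2 read -0.50 (adjusted p = 0.151). Cd44, the hyaluronan receptor, rose by 0.97 (adjusted p = 2.01e-06) on its brightest probe and read 0.51 and 0.58 on the other 2, both under the fold limit.

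**Figure D4:**
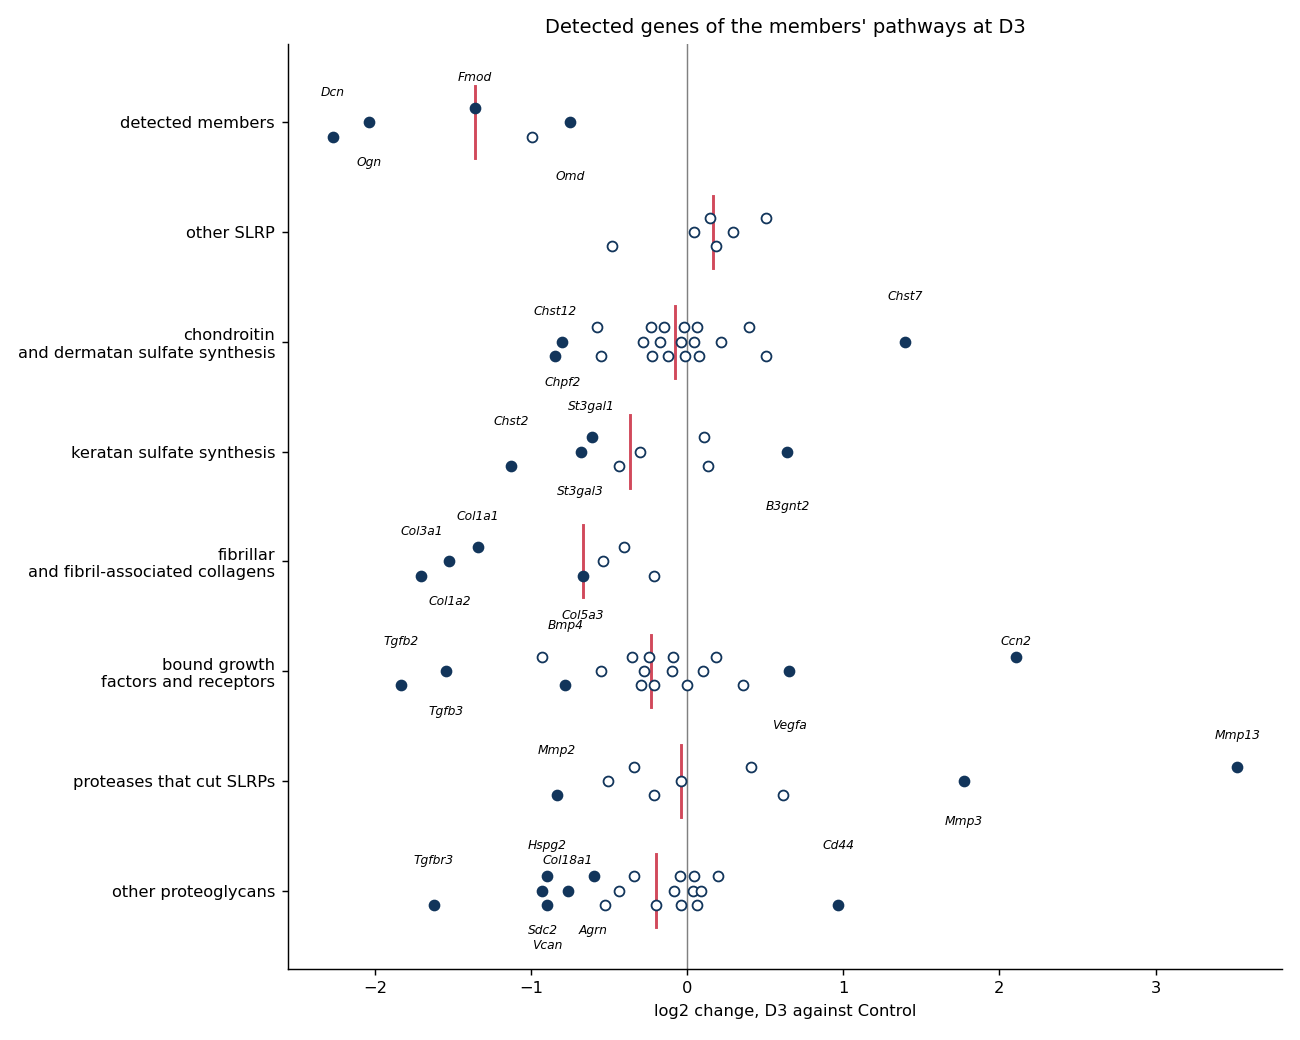
Log2 change at D3 against Control (horizontal axis) of each detected gene of the members and of 7 lists of related genes (vertical axis), each by its brightest probe; filled and named points were called, open points were not, and the red bar is the list median. The detected members (median -1.36) and the collagens (median -0.67) lie left of 0, the wider family around 0.17, and Mmp13 and Ccn2 lie farthest right.

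Mesenchymal markers fell beside the members, with 4 of 10 called lower at D1, 6 at D2 and 6 at D3 and none called higher. For a mean over the 10 genes, outlier spots were kept, so that each array had a value for every gene. This mean log2 ratio lay between 0.06 and 0.28 on the control arrays, -0.78 and -0.01 at D1, -0.91 and -0.51 at D2, and -0.94 and -0.52 at D3, so no exposed array reached the controls. At D3 Pdgfra changed by -1.53, Pdgfrb by -1.34 and Fn1 by -0.61, and Col1a1, Col1a2 and Col3a1 as given above. Fn1 lacked a value on 5 arrays and was called in 29 of 43 settings, and with the replicate block it read -0.48 (adjusted p = 0.0549). Vim lacked a value on 3 arrays. Vim (0.14, adjusted p = 0.859), Thy1 (-0.02, adjusted p = 0.977), Acta2 (-0.70, adjusted p = 0.229) and S100a4 (-0.49, adjusted p = 0.298) did not pass. Of 5 detected epithelial markers, only Krt7 was called at D3 (-0.85, adjusted p = 4.97e-05), and of 5 alveolar and club cell, 2 endothelial and 4 leukocyte markers none was. The part of a change in cell state or makeup in the decrease of the members was not tested.

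The genes whose pattern was most like that of Dcn were ranked by Pearson's r over the 22 arrays, on log2 ratios with slide effects removed, among 12247 detected genes with no missing value. As a description, the 5 highest were Dpm1 (r = 0.921), a subunit of the dolichol phosphate mannose synthase, Tmed3 (0.909), a trafficking protein of the early secretory pathway, Sqle (0.90), the squalene epoxidase, Spcs1 (0.897), a signal peptidase subunit, and P4ha2 (0.893), a collagen prolyl hydroxylase. The arrays share slides, the reference and the 4 groups, and the difference between control and exposed arrays is part of r. Without D1 replicate 6, chosen after its value was seen, the 5 highest were Col1a2 (0.933), C1s2 (0.932), a complement protease, Ahr (0.927), the aryl hydrocarbon receptor, Tmed3 (0.924) and Sesn3 (0.924), a sestrin. The other detected probes of Dpm1 and Ahr read -0.28 (adjusted p = 0.32) and -0.23 (adjusted p = 0.182) at D3, beside -1.24 and -1.65 for the probes ranked. Of the members, Omd had an r of 0.809 with Dcn, Fmod 0.677, Ogn 0.552 and Bgn 0.405, at ranks 125, 679, 1334 and 2279. Without D1 replicate 6 these values were 0.853, 0.735, 0.703 and 0.547, at ranks 152, 622, 778 and 1563.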

How the data were processed

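RNA of FE1 cells was measured on 22 two-colour Agilent arrays (sample in Cy5, reference in Cy3, no dye swap). The deposited scanner files hold median pixel intensities per spot without normalization and a background-corrected log10 ratio from the scanner software; per the file headers the software was Feature Extraction 10.7.3.1. The authors' series matrix holds log2 ratios by a normalization not given in the sources used here. The median intensities, without background subtraction, were turned to log2(Cy5/Cy3) and normalised by loess within each array; control spots (3671) were left out, outlier spots set to missing and spots of a probe combined by their median. Detection required Cy5 above the 5% trimmed mean plus 3 trimmed SDs of 308 negative control spots. The accession of each probe was looked up among GRCm38.p6 gene names (26413 of 55681 probes); no coordinates of probes are given. Promoters come from RefSeq on GRCm38.p6, where 6 of the 8 members have an entry.

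The comparisons used limma 3.58.1 (R 4.3.3), by group and slide over all arrays as in the methods of the study, whose MAANOVA test was not installed. The fit was tested on simulated data. No pair of arrays was a duplicate, with equal signal on no more than 2.36% of spots and a highest correlation of 0.961. The number of arrays limits precision. Samples of the same number deviated together: over 31 pairs between groups the correlation of deviations from group means was 0.177 to 0.817, and 27 of the pairs shared a slide. The numbers come from the labels. The members and gene lists were chosen with earlier results of these data known. Named genes are the members, up to 4 detected genes per list with the smallest adjusted p at D3, genes called against their list's direction and the 5 genes most like Dcn, each by its brightest probe; cell type markers are given in full where a result is set beside them. Alternatives concerned background, normalization, slide, replicate block, filters, thresholds and left-out arrays.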

Additional observations from a re-analysis of the deposited data

Results flagged for a closer look

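Over 7 members and 4 groups, 28 sets of values were examined for an array far from the others of its group by Dixon's test, which flags about 1 set in 20 by chance, and 4 were flagged. Dcn on D1 replicate 6 read -3.97, beside -1.59 to -1.10 on the other D1 arrays. Bgn on D2 replicate 2 read 2.04, beside -0.29 to 0.20. Fmod on D2 replicate 1 read -2.74, beside -2.01 to -1.75. Aspn on D1 replicate 4 read 2.82, beside -1.76 to -0.53. That probe was above the negative control level on only 2 of the 6 D1 arrays.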

How the results depend on the processing

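The counts of called members and the changes of the 5 detected members against Control, in D3 against D1 and in the trend were recomputed under 43 alternative settings with a test, as was Dcn between neighbouring doses; differences were also taken within the 4 slides that hold a control. For the lists only the genes called at D3 were recomputed, chosen after seeing the data: all 30 kept their sign in the 43 settings, and the calls held least often for Mmp2 (in 19 settings), Agrn (28), Fn1 (29), Bmp4 (32) and St3gal1 (33). List counts were not recomputed. All 516 recomputed tested changes of Dcn, Fmod, Ogn and Omd against Control were below 0. Settings that altered only a filter, a threshold or the test left each estimate as it was. In those settings the sign of the members and of the 30 list genes could not turn. Of 301 recounts of called members 292 stayed within 1.5 times. These include the comparisons between doses and the trend, where the main count was 0 and mostly stayed 0, so the pooled number says little about the calls against Control. At D1, 3 calls became 1 with an ordinary linear model, with only the groups compared, without slide 1 and without slide 3. At D2, 4 calls became 2 with median centring and 0 without slide 1, where too few arrays of Control and D2 remain for any probe to count as detected in 4, so that 0 probes of the whole array could be called. In D3 against D1, 0 calls became 1 (Dcn) without slide 4 and without D1 replicate 6, as did the trend without D1 replicate 6. With 1 array left out, the count ranged from 2 to 3 at D1, 4 to 5 at D2, 4 to 5 at D3 and 0 to 1 for D3 against D1 and the trend. The sign turned for a called value in 1 case, Ogn at D1 within slide 4 (0.13). Where slides or arrays were left out, fewer arrays entered; otherwise the cause was not tested. The replicate block gave 4 calls at D1, 4 at D2 and 5 at D3 and changed no other call of a member than those of Omd and Bgn given above. The mean of all probes of a gene was not run, since each member has 1 probe. Fmod and Omd lie near background, so the size of their change is uncertain.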
